A study of Mus musculus with 20 samples.

Results

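The 10 serotonin receptor genes described here, Htr1a, Htr1b, Htr1f, Htr2a, Htr2c, Htr3a, Htr4, Htr5a, Htr6 and Htr7, were taken by gene symbol from an RNA sequencing table of mouse amygdala with 29671 genes. All 10 were found in the table, and all 10 were among the 16727 genes that passed the filter on low counts. The RNA came from bilateral amygdala punches, 1.2 mm wide, of 20 male C57B6 mice bred in house that had not been through behavioural tests and were sampled at postnatal day 84. The mice fell into 4 groups of 5. F1 stress and F2 stress were the first and second generation after a chronic unpredictable stress procedure, and F1 no-stress and F2 no-stress were the matching generations of an unstressed lineage. No other genotype, drug or treatment is named, and no batch, date, litter or sire. Each mouse is a biological replicate with a number of its own from 1 to 20. Littermates, if there were any, would be less independent than a test on 5 mice per group assumes.

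Serotonin reaches the amygdala in fibres from the raphe nuclei of the brainstem, and it acts there through receptors that mostly signal through G proteins. The Htr1 receptors couple to inhibitory G proteins, lower cyclic AMP and open potassium channels. The Htr2 receptors couple to Gq and phospholipase C, Htr4, Htr6 and Htr7 couple to Gs and raise cyclic AMP, and Htr3a is the main subunit of a cation channel that serotonin opens directly. These receptors are known for their parts in fear, anxiety and stress responses, and different amygdala neurons carry different sets of them.

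Htr1b, Htr2c, Htr6 and Htr7 varied together or in opposition from mouse to mouse, and Htr1a and Htr3a did so with some of them, as described below. The stretches just upstream of the transcription starts of Htr1b, Htr2c, Htr6 and Htr7 are printed so that these 4 receptors can be set side by side. They are RefSeq sequences of build GRCm38.p6, written 5′ to 3′ on the strand of the gene, and capitals mark matches on either strand to the GC box (GGGCGG or CCGCCC) or the CCAAT box (CCAAT or ATTGG). The Htr1b stretch is chr9:81633833-81634082 on the minus strand, that of Htr2c is chrX:146962263-146962512 on the plus strand, that of Htr6 is chr4:139075571-139075820 on the minus strand, and that of Htr7 is chr19:36057508-36057610 on the minus strand, cut at 103 bases where an annotated exon begins.
Htr1b: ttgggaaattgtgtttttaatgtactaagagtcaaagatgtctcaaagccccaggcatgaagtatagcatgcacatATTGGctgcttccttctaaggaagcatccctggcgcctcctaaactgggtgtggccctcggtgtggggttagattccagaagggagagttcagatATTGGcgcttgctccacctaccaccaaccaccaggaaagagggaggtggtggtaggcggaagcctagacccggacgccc
Htr2c: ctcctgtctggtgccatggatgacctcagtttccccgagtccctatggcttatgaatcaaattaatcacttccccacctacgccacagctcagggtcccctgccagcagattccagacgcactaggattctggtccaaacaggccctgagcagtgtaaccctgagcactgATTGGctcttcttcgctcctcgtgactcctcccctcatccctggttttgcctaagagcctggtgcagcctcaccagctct
Htr6: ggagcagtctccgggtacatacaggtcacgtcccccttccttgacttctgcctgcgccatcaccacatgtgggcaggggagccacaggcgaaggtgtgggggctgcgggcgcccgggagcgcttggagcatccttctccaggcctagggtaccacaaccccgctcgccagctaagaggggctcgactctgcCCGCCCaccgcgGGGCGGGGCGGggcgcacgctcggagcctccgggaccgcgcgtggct
Htr7: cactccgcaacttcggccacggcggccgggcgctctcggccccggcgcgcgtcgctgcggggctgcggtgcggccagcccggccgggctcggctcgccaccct
Htr1b held 2 CCAAT matches and Htr2c held 1. Htr6 held 3 GC box matches, of which 2 overlap, and the 250 bases upstream of Htr7 held neither motif. Of 32851 RefSeq upstream windows of 250 bases, 32.7% held a GC box match and 33.8% a CCAAT match, so a single match is common. The GC content of the window was 70.8% for Htr6 and 82% for Htr7, against 52.4% for Htr1b, 55.6% for Htr2c and a median of 52.4% over all windows. RefSeq windows were matched for 8 of the 10 receptors by symbol, all but Htr3a and Htr4. Among the other 4, Htr1a and Htr2a each held 1 GC box match, and Htr1f and Htr5a held neither motif. None of the 8 windows held a TATAAA match (12.4% of all windows, both strands) or a TGACGTCA match (1.55%).

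The 10 genes are scattered over the genome (GRCm38, GENCODE M21). Htr1b lies at chr9:81628291-81633828 on the minus strand and Htr3a on the same chromosome at chr9:48899213-48911099. Htr2c spans chrX:146962513-147197277 on the plus strand, Htr6 chr4:139061108-139075570 and Htr7 chr19:35958734-36057507 on the minus strand. Htr1a lies at chr13:105443639-105448122, Htr1f at chr16:64924729-65105854, Htr2a at chr14:74640840-74709494, Htr4 at chr18:62324204-62496577 and Htr5a at chr5:27842149-27855088.

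Every library summed to between 13654890 and 13714805 counts, so depth after the authors' processing was nearly the same in all 20. Levels are given as CPM, the gene's count as a rate of its library's total after a correction for library composition (TMM factors). Markers of several regions were measured in the punches, and some of them are shared between amygdala and striatal neurons. All 12 markers of basolateral amygdala and other pallial excitatory neurons had a mean of at least 1 CPM (Slc17a7, a vesicular glutamate transporter, 564 CPM, and Nptx1 148 CPM), as had 11 of 12 central and intercalated amygdala markers (Pdyn, prodynorphin, 136 CPM, and Tshz1 59.8 CPM). All 16 markers of striatal medium spiny neurons did so as well (Penk, proenkephalin, 962 CPM, and Ppp1r1b 718 CPM), and their summed level differed widely within each group. It ran from 1953 to 5075 CPM in F1 stress, from 2557 to 8867 in F1 no-stress, from 1022 to 9640 in F2 stress and from 2777 to 8717 in F2 no-stress. F2 stress mouse 14 had the lowest and F2 stress mouse 15 the highest striatal sum of all 20. In bulk tissue, fewer cells of a type and less RNA per cell cannot be told apart.

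Htr2c, the Gq-coupled receptor of many amygdala and striatal neurons, was the most abundant of the 10 per length of transcript. Its level was 18.01 ± 3.14 CPM per kb of exons (SD, n = 20). Htr1b, an inhibitory receptor found largely on axon terminals, followed with 9.18 ± 3.36 CPM per kb, and it was below Htr2c in 18 of 20 libraries and above Htr7 in 17 of 20. Below these came a middle group of 5 receptors. Htr7 stood at 4.03 ± 1.41, Htr1a, the inhibitory receptor of cell bodies and dendrites, at 3.96 ± 0.887, and Htr5a, another inhibitory receptor, at 3.55 ± 0.482 CPM per kb. Htr2a, the Gq-coupled receptor through which psychedelic drugs act, stood at 2.88 ± 0.591 and Htr3a at 2.73 ± 1.03 CPM per kb. The lowest were Htr4 with 1.66 ± 0.445, Htr1f with 1.35 ± 0.409 and Htr6 with 1.03 ± 0.393 CPM per kb (SD, n = 20 for each).

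Most neighbours in the middle and at the low end of this order were not separated by their spread. The exceptions were Htr5a and Htr2a, and Htr3a and Htr4, whose means lay more than 1 SD apart. Htr5a was above Htr2a in 15 of 20 libraries, and Htr3a above Htr4 in 16 of 20. Htr7 was above Htr1a in 11 of 20 libraries and Htr2a above Htr3a in 10 of 20. The means of Htr1a and Htr5a, of Htr4 and Htr1f, and of Htr1f and Htr6 also lay within 1 SD of each other, with the first above the second in 15 of 20 libraries in each case. With the longest transcript in place of all exons, an alternative added after the data were seen, the order of means was the same, and Htr2c reached 34.4 CPM per kb and was above Htr1b in 20 of 20 libraries. The plot of levels per exon length shows the 20 libraries for each receptor.

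**Figure D1:**
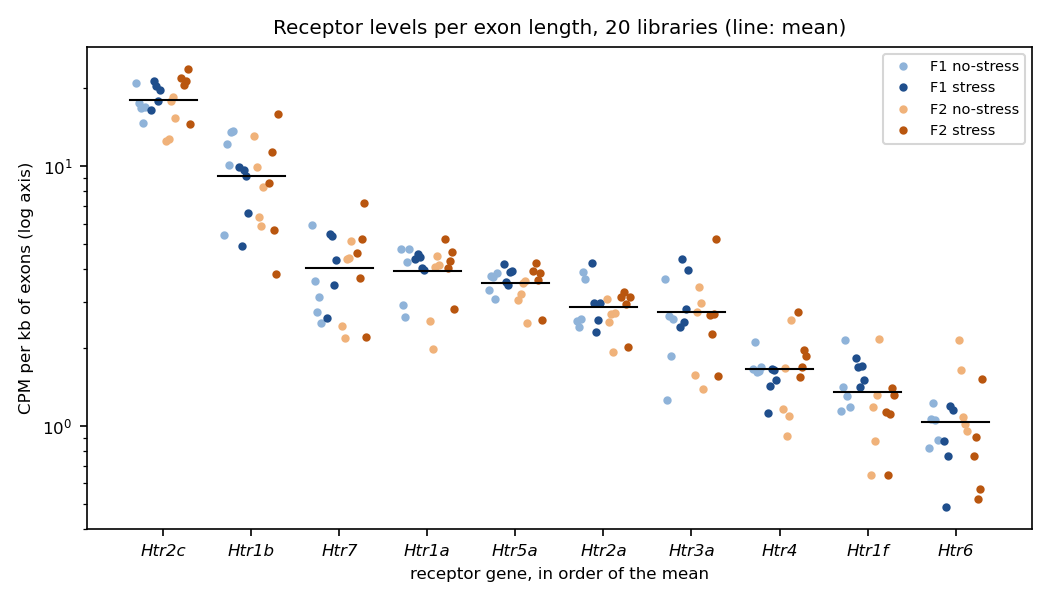
Level of each receptor in CPM per kb of exons (vertical log axis) for 20 libraries coloured by group, with receptors in order of their mean (horizontal line). Htr2c lies on top at a mean of 18.01, Htr1b next at 9.18, and Htr6 lowest at 1.03.

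The remaining serotonin receptor genes of the table were mostly scarce. Htr1d, an inhibitory receptor close to Htr1b in function, reached 12.5 ± 4.31 CPM (SD, n = 20). Htr5b stood at 0.529 ± 0.448 CPM, with 0 counts in 1 library. Htr2b had 4 counts and Htr3b, the partner subunit of Htr3a, 3 counts in all 20 libraries together, and each was at 0 in 17 of them. Genes specific to serotonin neurons were near 0, with Tph2, the brain enzyme of serotonin synthesis, at 0.583 ± 0.301 CPM, Slc6a4, the serotonin transporter, at 0.0546 ± 0.0462 CPM and Fev, a transcription factor of serotonin neurons, at 0.00709 ± 0.0218 CPM. Ddc, the enzyme of the last step of serotonin synthesis, which dopamine neurons also use, was at 12.7 ± 4.28 CPM and Slc18a2, the vesicular monoamine transporter, at 1.80 ± 1.22 CPM. Maoa and Maob, the enzymes that break serotonin down, were at 43.2 ± 5.29 and 29.3 ± 4.38 CPM (SD, n = 20 for each).

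The spread between mice differed strongly between receptors. Htr5a and Htr2c were steady, with a coefficient of variation over all 20 libraries of 13.6% for Htr5a and 17.4% for Htr2c. Htr6, Htr3a, Htr1b and Htr7 were the most variable over all 20, at 38.2%, 37.6%, 36.6% and 35.0%. Within single groups the order could differ, with Htr1f (46.8%) and Htr4 (44.8%) the most variable in F2 no-stress. The highest library exceeded the lowest by 4.40-fold for Htr6, 4.16-fold for Htr3a, 4.14-fold for Htr1b and 3.32-fold for Htr7, against 1.71-fold for Htr5a and 1.90-fold for Htr2c. The plot of CPM by group shows that this spread lay mostly within groups.

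**Figure D2:**
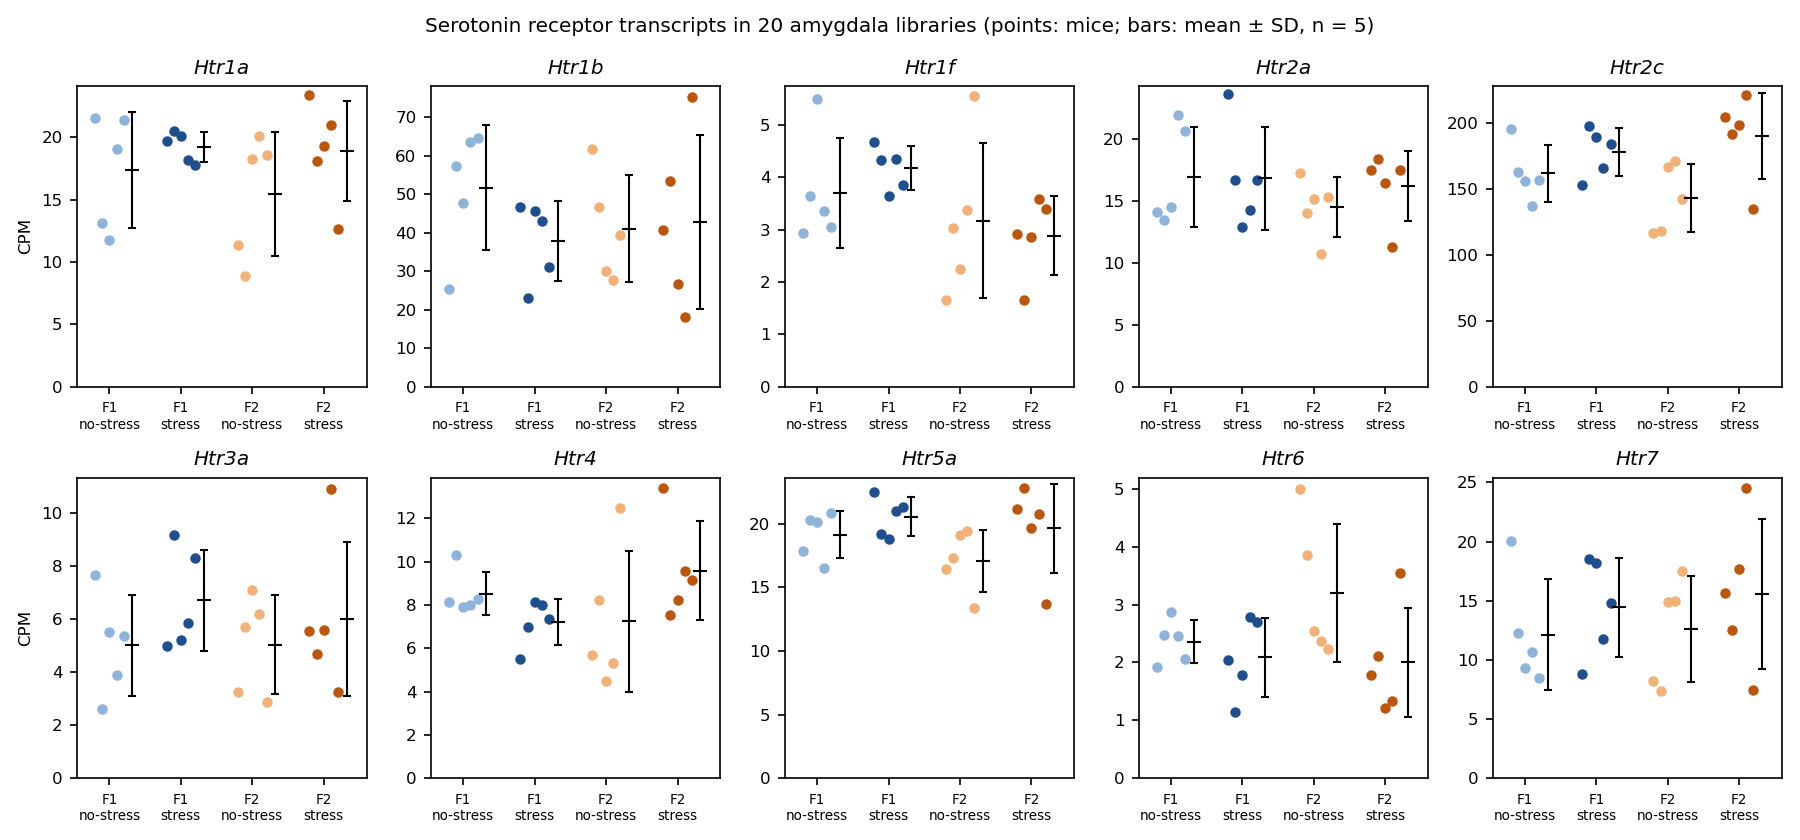
CPM of each receptor (vertical axis, starting at 0) in the 20 mice by group, with mean ± SD of 5 mice beside the points. Htr5a and Htr2c vary least over all 20 libraries (coefficient of variation 13.6% and 17.4%), while Htr1b in F2 stress runs from 18.2 to 75.2 CPM.

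Htr1b and Htr2c moved in opposite directions across mice. Htr1b was at 46.6, 23.2, 45.6, 43.1 and 31.0 CPM in F1 stress and at 25.5, 57.3, 47.6, 63.6 and 64.6 CPM in F1 no-stress. In the second generation it was at 40.7, 53.3, 26.7, 18.2 and 75.2 CPM in F2 stress and at 61.7, 46.7, 30.0, 27.7 and 39.3 CPM in F2 no-stress. Mouse 14 of F2 stress was the lowest and mouse 15 of the same group the highest of all 20, and all 4 groups overlapped. Part of the Htr1b locus is also annotated on the other strand: 852 exon bases are shared with D430036J16Rik, an antisense gene with 23 to 158 counts per library against 258 to 996 for Htr1b, and reads of the pair cannot be told apart if counting ignored strand.

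Htr2c was at 153, 197, 189, 166 and 184 CPM in F1 stress and at 195, 163, 156, 137 and 157 CPM in F1 no-stress. It was at 204, 192, 198, 221 and 135 CPM in F2 stress and at 116, 118, 166, 171 and 142 CPM in F2 no-stress. The highest value was again in F2 stress mouse 14, which had the lowest Htr1b. F2 stress mouse 15, with the highest Htr1b, had the lowest Htr2c of the stress-lineage mice of both generations. The ratio of Htr1b to Htr2c CPM ran from 0.0823 in mouse 14 to 0.558 in mouse 15, a 6.78-fold range inside a single group.

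After group means were subtracted from log2 CPM, 11 of 45 receptor pairs were correlated over the 20 libraries at an adjusted permutation p under 0.05 (100000 permutations within groups, two-sided, Benjamini-Hochberg over 45 pairs), 5 positively and 6 negatively. By Spearman's rho 12 pairs passed. How often pairs of other genes pass was not measured, so these counts are not shown to be particular to serotonin receptors. Htr2c and Htr7 were the closest pair, with r = 0.88 and rho = 0.86 (adjusted permutation p = 0.00225 and 0.00255). Htr1b went against both, with r = -0.83 and rho = -0.79 for Htr2c (adjusted permutation p = 0.0018 and 0.00225) and r = -0.83 and rho = -0.78 for Htr7 (adjusted permutation p = 0.00225 and 0.00371). Htr3a also ran against Htr1b (r = -0.80, rho = -0.74, adjusted permutation p = 0.00225 and 0.00585). Htr6 went with Htr1b (r = 0.73, rho = 0.69, adjusted permutation p = 0.00579 and 0.0168) and against Htr7 (r = -0.77, rho = -0.78, adjusted permutation p = 0.00472 and 0.00378).

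The other 5 pairs that passed were Htr2c with Htr6 (r = -0.76, rho = -0.73), Htr1a with Htr6 (r = -0.71, rho = -0.75), Htr1a with Htr2c (r = 0.68, rho = 0.70), Htr1a with Htr7 (r = 0.66, rho = 0.68) and Htr2c with Htr3a (r = 0.65, rho = 0.67), with adjusted permutation p from 0.00472 to 0.0421 for r. Without the 2 libraries farthest from the median of the first-named receptor, 7 pairs passed. The relations of Htr1a with Htr2c (r = 0.53), Htr1a with Htr7 (r = 0.50), Htr1b with Htr6 (r = 0.67) and Htr2c with Htr6 (r = -0.68) then missed the threshold, the last 2 narrowly (adjusted permutation p = 0.0529 for each). For Htr1b with Htr2c, r was -0.82 without them, and for Htr2c with Htr7 it was 0.84. Htr4, Htr1f, Htr5a and Htr2a were in none of the 11 pairs, and the pair that passed by rho alone was Htr1b with Htr2a (rho = 0.62).

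**Figure D3:**
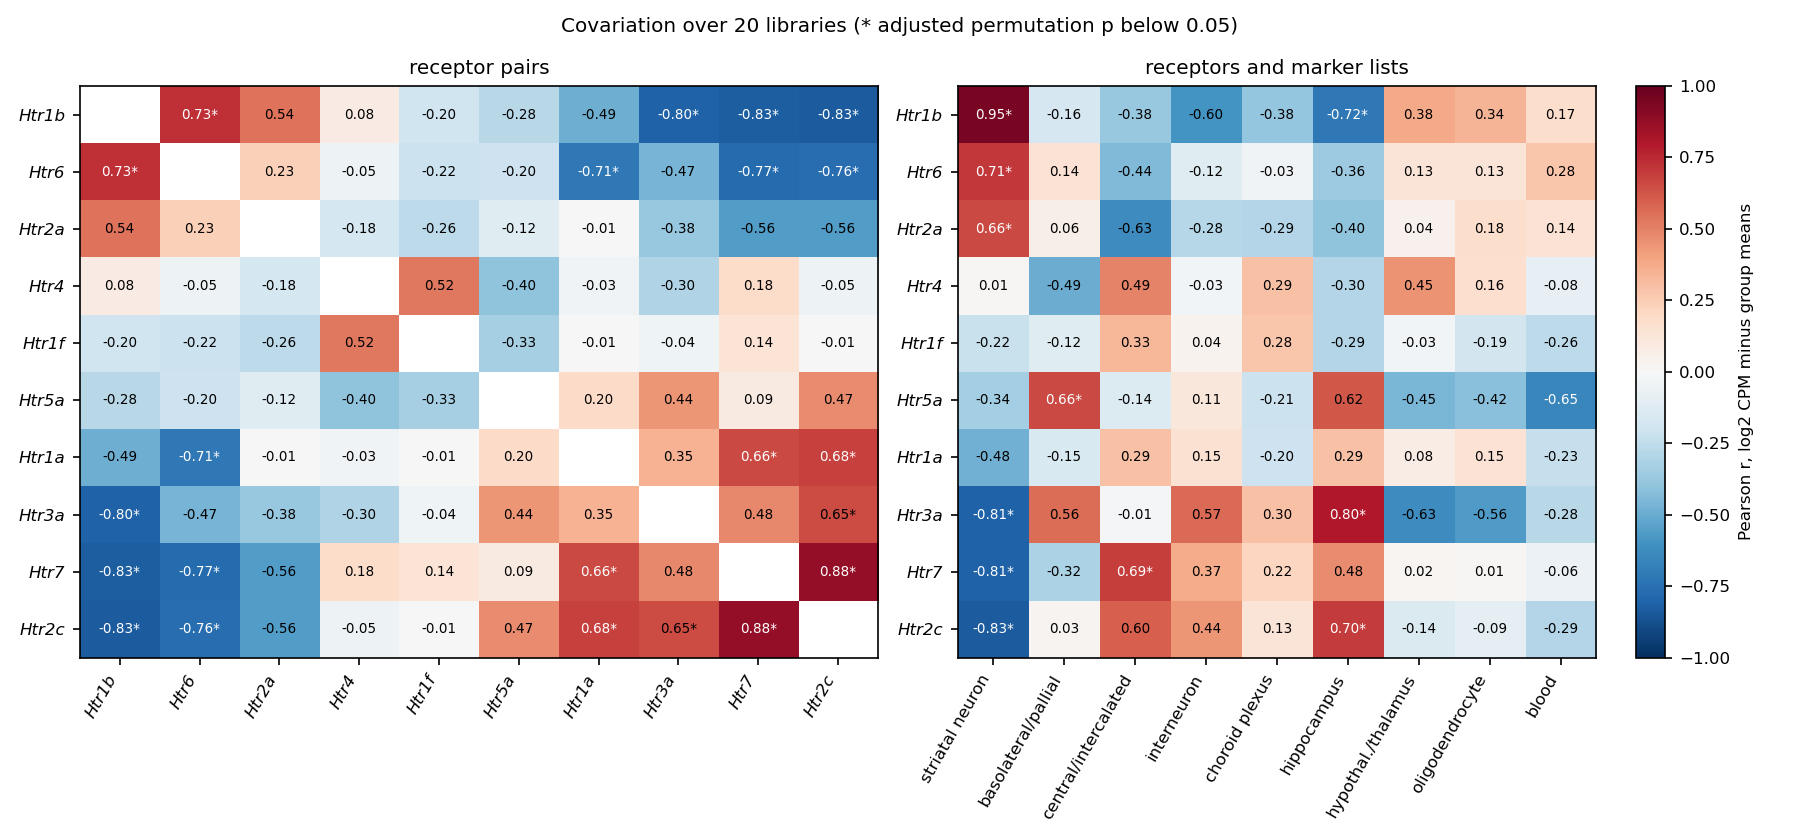
Pearson r over 20 libraries of log2 CPM after subtraction of group means, for pairs of receptors (left) and for receptors with the mean log2 CPM of 9 marker lists (right); colour runs from -1 to 1 and asterisks mark an adjusted permutation p under 0.05. Htr1b and Htr6 rise together and fall against Htr2c and Htr7. Htr3a also runs against Htr1b and with Htr2c, and Htr1a against Htr6 and with Htr2c and Htr7.

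Of the 10 receptors, 6 also moved with the striatal markers of the punch. The share of all tested genes that do so was not measured, so this is not shown to be particular to serotonin receptors. The striatal score is the mean log2 CPM of 16 genes, among them the dopamine receptors Drd1 and Drd2 and the adenosine receptor Adora2a, and it holds no serotonin receptor. Htr1b followed it with r = 0.95 and rho = 0.97 over the 20 libraries (adjusted permutation p = 0.0009 for each over 90 relations of 10 receptors with 9 lists, unadjusted p = 1e-05, the smallest that the permutations can give). Htr2c fell along it with r = -0.83 and rho = -0.83 (adjusted permutation p = 0.00405 and 0.00315), Htr7 with r = -0.81 and rho = -0.79 (0.00405 and 0.00684) and Htr3a with r = -0.81 and rho = -0.78 (0.00414 and 0.00684). Htr6 (r = 0.71, rho = 0.68, adjusted permutation p = 0.0197 and 0.0241) and Htr2a (r = 0.66, rho = 0.67, adjusted permutation p = 0.0197 and 0.0241) rose along it.

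The libraries farthest from the median striatal score were F2 stress mice 14 and 15. Without them, Htr1b kept r = 0.95 (adjusted permutation p = 0.0009), Htr2c had r = -0.87 (0.0018) and Htr7 r = -0.75 (0.0408). The values for Htr3a (r = -0.70, adjusted permutation p = 0.0766), Htr6 (r = 0.66, 0.0589) and Htr2a (r = 0.59, 0.154) missed the threshold without these 2 mice. Htr1a (r = -0.48), Htr5a (r = -0.34), Htr1f (r = -0.22) and Htr4 (r = 0.01) did not pass with all 20 libraries. These are relations between transcripts of the same tissue piece, and which cells the transcripts came from was not measured.

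**Figure D4:**
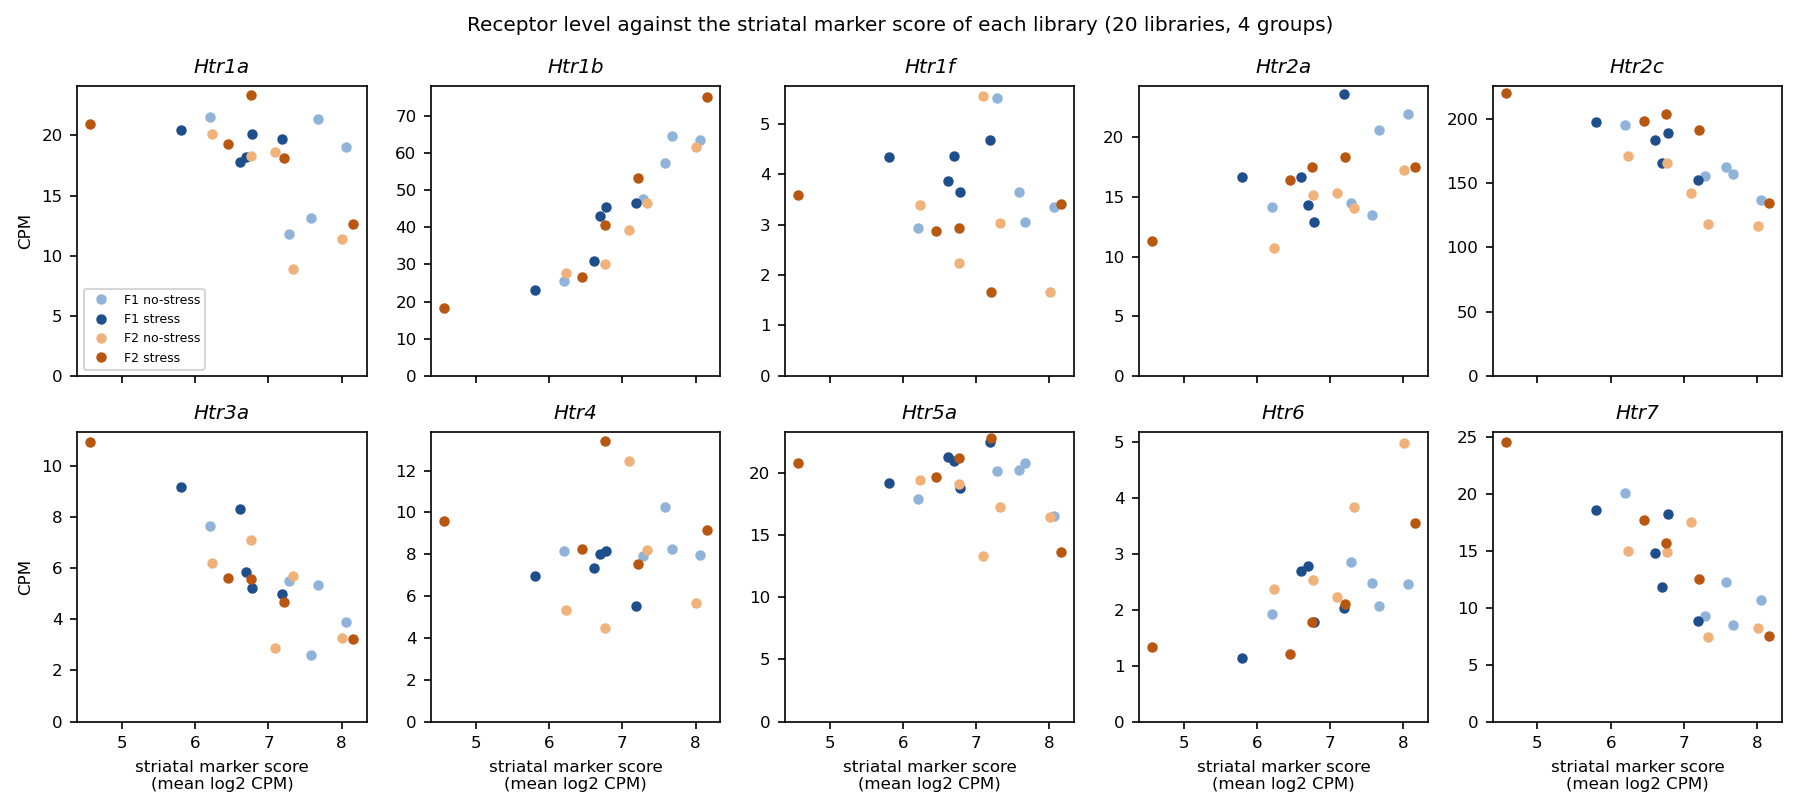
CPM of each receptor (vertical axis, starting at 0) against the striatal marker score, the mean log2 CPM of 16 genes (horizontal axis), in 20 libraries coloured by group. Htr1b climbs from 18.2 CPM at the lowest score to 75.2 CPM at the highest, and Htr2c and Htr7 decline.

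Outside the striatal list, 5 of 80 relations passed. Of the 9 genes listed as hippocampal markers, 3 had a mean under 1 CPM, and 8 were in the hippocampal score. Whether these transcripts came from hippocampal tissue or from other cells of the punch was not tested. The score of this list (Wfs1, 241 CPM, and Prox1, 18.3 CPM, were its most abundant genes) went with Htr3a (r = 0.80, rho = 0.78, adjusted permutation p = 0.00405 and 0.00684) and Htr2c (r = 0.70, rho = 0.73, 0.036 and 0.0146), and against Htr1b (r = -0.72, rho = -0.74, 0.0197 and 0.0146). All 3 passed without the 2 libraries farthest from the median hippocampal score, F2 stress mouse 15 and F2 no-stress mouse 20, while Htr2c missed the threshold with a smaller prior count on the log scale (r = 0.66, adjusted permutation p = 0.0583). Htr5a went with the pallial list (r = 0.66, rho = 0.63, adjusted permutation p = 0.0162 and 0.0448) and Htr7 with the central and intercalated list (r = 0.69, rho = 0.71, 0.0197 and 0.0146). Without the 2 libraries farthest from the median of each list's score, r was 0.53 for Htr5a and 0.64 for Htr7, and neither passed (adjusted permutation p = 0.149 and 0.104).

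No relation with the interneuron (Cnr1, 233 CPM, and Reln, 117 CPM), oligodendrocyte (Mbp, 1240 CPM), blood (Hbb-bs, 47.5 CPM, and Hba-a1, 38.1 CPM), hypothalamus and thalamus (Prkch, 22.5 CPM, and Plekhg1, 17.4 CPM) or choroid plexus list passed by Pearson's r. By Spearman's rho, Htr1b and the interneuron list did (rho = -0.68, adjusted permutation p = 0.024, against r = -0.60 and 0.0606). Of the 10 hypothalamus and thalamus markers, 6 had a mean under 1 CPM, among them Hcrt (0.00747 CPM) and Oxt (0.0329 CPM), and the score held 4. Choroid plexus carries very high Htr2c in the mouse brain. Of its 12 markers 7 had a mean under 1 CPM, with Folr1, Kcnj13, Kcne2 and Cldn2 between 0.0721 and 0.0885 CPM. The most abundant were Clic6 (17.4 CPM) and Kl (8.18 CPM), and Ttr, transthyretin, was at 6.51 ± 9.74 CPM (SD, n = 20) with 12 to 632 counts per library. The summed level of the list was 32.3 to 79.2 CPM in F1 stress, 30.4 to 47.2 in F1 no-stress, 23.3 to 34.4 in F2 stress and 27.2 to 37.5 in F2 no-stress. The choroid plexus score held only the 5 of 12 markers that passed the filter on low counts, and its r with Htr2c was 0.13. Whether choroid plexus contributed to Htr2c was not tested.

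For each receptor, the genes most like it were those with the highest r over the 20 libraries after subtraction of group means, among 15570 genes with a mean of at least 1 CPM. They are a description, since all come from the same libraries and the largest of many coefficients are high by selection. Htr1b was closest to Pde7b (r = 0.98), a phosphodiesterase, Foxp1 (0.98), a transcription factor, and St8sia3 (0.97). Htr2c was closest to Slc39a6 (0.93), Cdh2 (0.93), the neural cadherin, and Dpp10 (0.92). Htr7 was closest to Adarb2 (0.93), a gene of the interneuron list, Dynlt1c (0.93) and Patj (0.92), and Htr3a to Kcnc4 (0.92), a potassium channel gene, Fads3 (0.89) and Met (0.89).

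The other 6 receptors had leading coefficients from 0.79 to 0.91. Htr5a was closest to Rad23b, Rtn3 and Cstf2t (0.91 for each). Htr1a was closest to Gm8271 (0.89), Gm16440 (0.85) and Rasgrf2 (0.84), Htr2a to Mbd2 (0.88), Rragd (0.87) and Spry2 (0.85), and Htr6 to Sh3bgrl3 (0.87), Clptm1 (0.86) and Ski (0.85). Htr1f, with Spata33 (0.81), 1810030O07Rik (0.80) and Saxo2 (0.80), and Htr4, with Zfp551 (0.79), Ncbp3 (0.77) and Vrk2 (0.77), had no close companion.

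The lineage comparison asks whether descendants of stressed mice differ from descendants of unstressed mice in each generation. In the first generation none of the 10 receptors passed edgeR's quasi-likelihood test at an adjusted p under 0.05, and neither did any other gene (0% of 16727). At an unadjusted p under 0.05 there were 1030 genes, 6.16% of those tested, and 0 receptors. DESeq2 called 2 genes in this comparison and limma-voom none, and neither called a receptor. Estimates ran from a log2 fold change of -0.45 ± 0.33 (SE) for Htr1b to 0.42 ± 0.32 for Htr3a, with adjusted p from 0.746 to 0.991. The median over the receptors was 0.12 and over all genes 0.00. No receptor separated the groups without overlap, which 1.24% of genes did.

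The 95% intervals show what the first generation could not resolve. Htr5a was the tightest, with a log2 fold change of 0.10 and an interval from -0.15 to 0.36, and Htr2c lay at 0.14 with an interval from -0.14 to 0.41. Htr1b, at 37.9 ± 10.3 CPM in F1 stress and 51.7 ± 16.1 CPM in F1 no-stress (SD, n = 5), had an interval from -1.15 to 0.25. The striatal score beside it was 6.62 ± 0.505 in F1 stress and 7.36 ± 0.704 in F1 no-stress (SD, n = 5; exact two-sided permutation test, p = 0.103, adjusted p = 0.929 over 36 tests). With that score as a covariate, a setting added after the data were seen, Htr1b stood at 0.07 ± 0.12 (SE). Htr1b itself followed the score with r = 0.95, so the adjusted value cannot show why the group means differed. The cause of that difference was not tested.

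In the second generation none of the 10 receptors passed either, while 1324 genes did, 7.92% of those tested, of which 441 (2.64%) were higher and 883 (5.28%) lower in F2 stress. Htr2c and Htr6 had an unadjusted p under 0.05, as had 25.6% of all genes. The estimates of 8 receptors were positive and of 2 negative, and the median was 0.23 against 0.00 over all genes. No receptor separated the groups without overlap, which 4.61% of genes did. The plot of group differences shows each estimate with its interval.

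Htr2c came closest to the threshold. Its mean was 189.8 ± 32.6 CPM in F2 stress and 142.8 ± 25.8 CPM in F2 no-stress (SD, n = 5), a log2 fold change of 0.41 ± 0.13 (SE, 95% interval 0.13 to 0.69, adjusted p = 0.0589 by edgeR's quasi-likelihood test). As listed above, 4 of the 5 stress-lineage mice lay above all 5 no-stress mice, and mouse 15 of F2 stress, with 135 CPM, lay inside the no-stress range of 116 to 171 CPM. The call turned with the method and with single libraries. Htr2c passed by DESeq2 (0.42, adjusted p = 0.0276) and with the striatal score as a covariate (0.31 ± 0.08 SE, edgeR adjusted p = 0.0237). It also passed without F2 stress mouse 15 (0.51, edgeR adjusted p = 0.0101), F2 no-stress mouse 18 (0.47, 0.0438) or F2 no-stress mouse 19 (0.48, 0.0417). With an offset for GC content and length it was 0.23 (edgeR adjusted p = 0.432).

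Htr6, a Gs-coupled receptor found mainly in brain, was the receptor with the largest estimate in this comparison. It was at 1.78, 2.12, 1.22, 1.34 and 3.55 CPM in F2 stress and at 5.00, 3.85, 2.54, 2.38 and 2.24 CPM in F2 no-stress. Mouse 15 again stood apart in F2 stress, with the third highest value of the 10 mice. The log2 fold change was -0.68 ± 0.29 (SE, 95% interval -1.29 to -0.07, adjusted p = 0.150 by edgeR), and without mouse 15 it was -0.98 (edgeR adjusted p = 0.0258). With the GC content and length offset it was -0.25 (edgeR adjusted p = 0.718). Its longest transcript has a GC content of 63.1%, the highest of the 10, against 42.1% for Htr2c, and only 17 to 66 counts per library stood behind these values.

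Htr4, a Gs-coupled receptor, was at 13.4, 7.55, 8.25, 9.57 and 9.14 CPM in F2 stress and at 5.68, 8.22, 4.50, 5.33 and 12.5 CPM in F2 no-stress. F2 no-stress mouse 20 lay far above the other 4 of its group and inside the stress range. The log2 fold change was 0.40 ± 0.22 (SE, adjusted p = 0.250 by edgeR), and without mouse 20 it was 0.69 (edgeR adjusted p = 0.0235). That mouse also had the lowest pallial score of the 20 libraries, at 2.04 on the log2 scale.

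The remaining receptors had wider or smaller differences in the second generation. Htr7, at 15.6 ± 6.33 CPM in F2 stress and 12.6 ± 4.50 CPM in F2 no-stress (SD, n = 5), had a log2 fold change of 0.31 ± 0.31 (SE), and Htr3a, at 5.999 ± 2.90 and 5.03 ± 1.86 CPM, had 0.26 ± 0.32. Htr1b, at 42.8 ± 22.5 and 41.1 ± 13.8 CPM, was at 0.06 ± 0.33 and turned to -0.07 with the GC content and length offset. Htr1a was at 0.29 ± 0.21, Htr5a at 0.20 ± 0.12, Htr2a at 0.16 ± 0.18 and Htr1f at -0.14 ± 0.26 (log2 fold change ± SE). The striatal score was 6.63 ± 1.32 in F2 stress and 7.09 ± 0.660 in F2 no-stress (SD, n = 5; exact two-sided permutation test, p = 0.563).

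**Figure D5:**
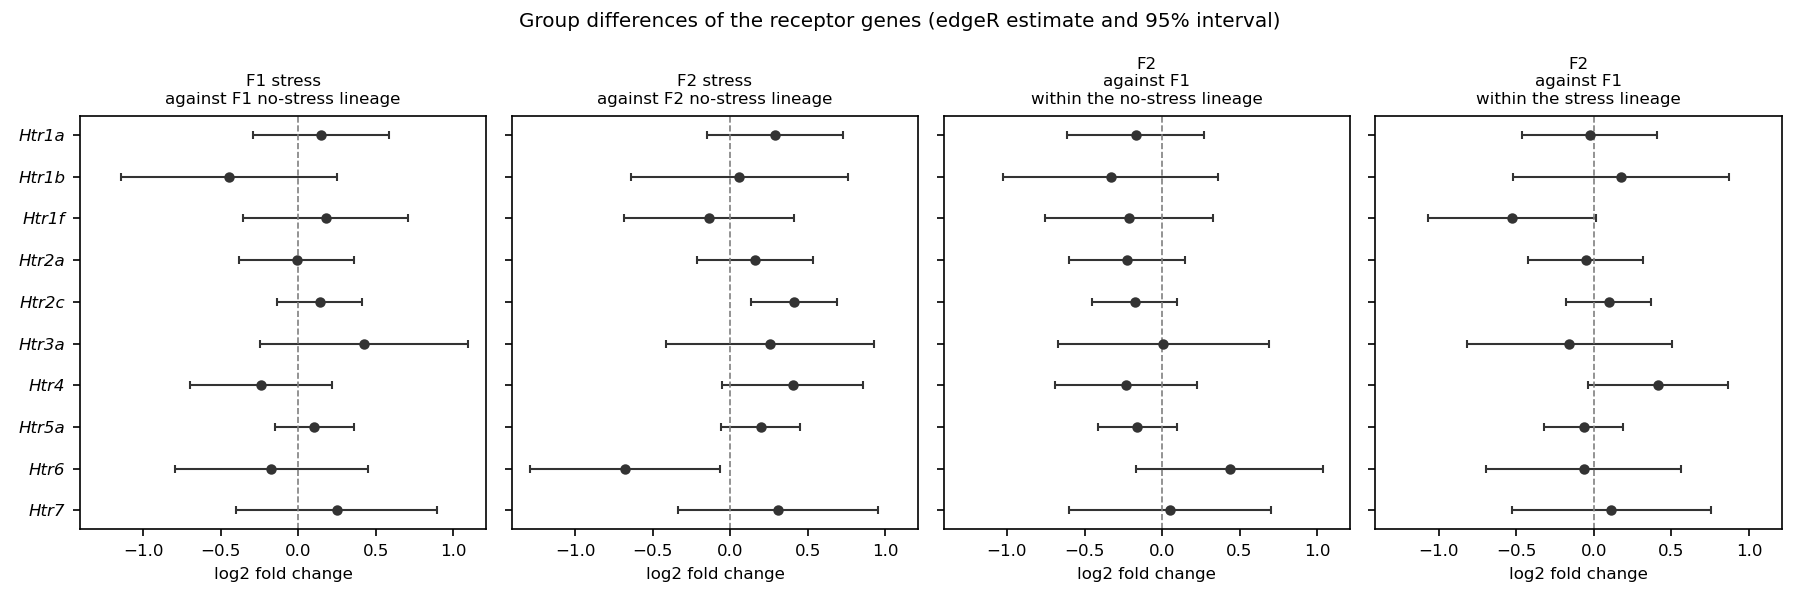
Log2 fold change of each receptor (points) with its 95% interval from edgeR (bars) in the 4 comparisons between groups; the dashed line marks 0. In the second generation the interval of Htr2c runs from 0.13 to 0.69 and that of Htr6 from -1.29 to -0.07, and neither passed after adjustment.

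Whether the lineage difference itself changed between generations was tested as an interaction over the 4 groups. None of the 10 receptors passed, against 421 genes (2.52%; 0.837% with a positive and 1.68% with a negative interaction). Htr4 alone had an unadjusted p under 0.05, as had 21.2% of genes. It stood at 7.20 ± 1.06 CPM in F1 stress, 8.51 ± 0.994 in F1 no-stress, 9.58 ± 2.27 in F2 stress and 7.24 ± 3.24 in F2 no-stress (SD, n = 5), and its interaction was 0.65 ± 0.31 on the log2 scale (SE, adjusted p = 0.234 by edgeR). Without F2 no-stress mouse 20 this became 0.93 (edgeR adjusted p = 0.0488). For Htr2c the interaction was 0.27 ± 0.19 (SE, adjusted p = 0.427 by edgeR), so the lineage difference of the second generation was not shown to differ from that of the first. The median over the receptors was 0.12 and over all genes -0.01.

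Between generations of the no-stress lineage, 335 genes passed (2% of those tested, 1.47% higher and 0.532% lower in F2) and 0 receptors, with estimates from -0.33 ± 0.33 (SE) for Htr1b to 0.44 ± 0.29 for Htr6 and adjusted p from 0.418 to 0.991 by edgeR. At an unadjusted p under 0.05 there were 20.2% of genes and 0 receptors. The median was -0.17 against 0.02 over all genes, and 7 receptors were negative. No receptor separated the groups, which 4.52% of genes did. Within the stress lineage 2 genes passed (0.0120%) and 0 receptors, 6.99% of genes and 0 receptors had an unadjusted p under 0.05, with a median of -0.04 against 0.01 over all genes. These comparisons use the same groups as the lineage comparisons, so they are not independent of them.

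Htr1f, an inhibitory receptor and the target of lasmiditan, was the only receptor in these 4 comparisons whose groups did not overlap. It was at 4.68, 4.33, 3.64, 4.36 and 3.86 CPM in F1 stress and at 2.92, 1.66, 2.87, 3.59 and 3.40 CPM in F2 stress. All 5 F2 mice lay below all 5 F1 mice, by a narrow margin, which 0.777% of genes did in either direction. The log2 fold change was -0.53 ± 0.26 (SE, 95% interval -1.07 to 0.01, adjusted p = 0.715 by edgeR). The values rested on 22 to 62 counts per library.

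The surrounding serotonin genes were taken from 3 lists of known roles. In the second generation, 2 of 8 tested genes of serotonin synthesis, transport and breakdown rose in F2 stress and none fell, where 2.64% of all genes were called higher. Maob was at 32.3 ± 4.78 CPM in F2 stress and 24.6 ± 1.97 CPM in F2 no-stress (SD, n = 5; log2 fold change 0.39 ± 0.11 SE, adjusted p = 0.0307 by edgeR), and all 5 stress-lineage mice lay above all 5 others, a separation in either direction that 4.61% of all genes showed. Maoa was at 46.6 ± 6.37 and 37.7 ± 3.07 CPM (0.31 ± 0.09 SE, adjusted p = 0.0440 by edgeR), with overlap. Of 27 genes for G proteins and effectors, 1 rose and none fell, a share near that 2.64% of all genes. This was Gnai3, an inhibitory G protein subunit, at 39.2 ± 3.77 and 30.6 ± 1.40 CPM with groups that did not overlap (0.35 ± 0.08 SE, adjusted p = 0.0181 by edgeR).

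None of these 3 calls held in every setting. With the GC content and length offset the log2 fold changes were 0.24 for Maob, 0.14 for Maoa and 0.17 for Gnai3 (edgeR adjusted p = 0.260, 0.519 and 0.308), and with only the 2 groups in the fit the adjusted p were 0.109, 0.147 and 0.0964. Maoa was also lost with library totals, with no filter and with limma-voom (adjusted p = 0.0685, 0.0781 and 0.0525). Gnai3 was also the only gene of the lists to pass the interaction (0.52 ± 0.12 SE, adjusted p = 0.0314 by edgeR), and with the offset it was 0.31 (adjusted p = 0.202). That interaction was also lost with no filter (adjusted p = 0.0567) and without mouse 2, 3, 4, 7, 8, 10, 11, 12, 13, 16 or 17 (0.0596 to 0.0752). Each F2 lineage call was lost without single F2 mice: Maob without mouse 11, 13, 16 or 17 (adjusted p from 0.0729 to 0.0900), Maoa without mouse 11, 13, 14, 16, 17 or 19 (0.0596 to 0.134) and Gnai3 without mouse 11, 12, 13, 16 or 17 (0.0525 to 0.0553).

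None of 15 partner proteins of the receptors passed in any comparison, and no gene of the 3 lists passed in the first generation or between generations. In the first generation the smallest p of each list were those of Tph2 (log2 fold change ± SE of -1.09 ± 0.40), Gnb5 (-0.40 ± 0.18), Rgs4 (-0.72 ± 0.37) and Htr1d (-0.47 ± 0.32), with adjusted p from 0.739 to 0.740 by edgeR. In the second generation the smallest p of the partner list was that of Cops5 (0.24 ± 0.08, adjusted p = 0.0559 by edgeR), and Htr5b, at 0.846 ± 0.724 CPM in F2 stress and 0.306 ± 0.333 in F2 no-stress, was at 1.44 ± 0.64 (log2 fold change ± SE, adjusted p = 0.159 by edgeR). Tph2 had the largest interaction, 1.88 ± 0.57 on the log2 scale (SE, adjusted p = 0.0712 by edgeR), from 3 to 16 counts per library. In the partner list, the smallest p between generations were those of Cc2d1a (0.39 ± 0.15) within the no-stress lineage and Fyn (0.25 ± 0.07) within the stress lineage. Their adjusted p were 0.150 and 0.643 by edgeR.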

How the data were processed

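The deposited table holds whole-number counts per gene for 20 libraries, made with the TruSeq Stranded mRNA kit per the labels' protocols. The submitters' processing notes name the aligner STAR (2.5.3a) and the build GRCm38. The counting tool, its strand setting and its handling of reads with several positions were not given in the sources used here. Column totals lay within 0.439% of each other, closer than sequencing leaves them, so a step not described in those sources set the total, and the depth before it is unknown.

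The counts were tested in R 4.3.3 with edgeR 4.0.16 over all 4 groups (filterByExpr, TMM factors of 0.956 to 1.04, robust quasi-likelihood test, Benjamini-Hochberg adjustment over 16727 genes, threshold 0.05). The p-values measure the spread between these mice. CPM are TMM-scaled, and log2 CPM carries a prior count of 2. Length is the merged exons of GENCODE M21. A marker score is the mean log2 CPM of a list's tested genes. Relations used group-centred values and 100000 permutations within groups (Python 3.11.15). Scores between groups were compared by an exact permutation test over 252 arrangements, whose smallest p is 0.00794. None of 36 such tests passed, and the smallest adjusted p was 0.571.

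Named genes were the 10 receptors, the genes called in each of 4 other serotonin lists (at most 4 with the smallest p, or the 1 with the smallest p where none was called), the 2 most abundant genes of each marker list, and for each receptor the 3 genes with the highest r. Htr5b and, between generations, Maob, Gnai3 and Tph2 were named by this rule with adjusted p from 0.104 to 0.809 and are not all described. A marker gene that the rule also names is not reported here. The receptors and lists were chosen with earlier results of these data known. No pair of libraries within a group agreed within sampling noise (40 pairs, chi-square per gene of at least 6.99). Tested on simulated data of 16596 genes for the F2 lineage comparison, the procedure recovered 51 of 100 genes changed 1.5-fold and 81 of 100 changed 2-fold, with 5 false calls. Each simulated gene was drawn independently of the others, whereas genes here moved together across libraries. The recovery and the false calls therefore do not measure how such shared differences between libraries affect the calls. Alternatives were other scaling and filters, an adjusted p under 0.1, DESeq2 1.42.0, limma-voom (limma 3.58.1), fits of only the groups compared, a GC content and length offset, a prior count of 0.5, each library left out in turn and, added after the data were seen, the striatal score as a covariate.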

Additional observations from a re-analysis of the deposited data

Results flagged for a closer look

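In 3 of 48 groups of 5 mice examined, 1 mouse lay far from the other 4 (its gap to the nearest was over 0.71 of the group's range). Chance alone marks about 1 in 20 such groups. Htr1f was at 5.51 CPM in F1 no-stress mouse 8 and between 2.93 and 3.64 CPM in the other 4. Htr2a was at 11.3 CPM in F2 stress mouse 14, the mouse with the lowest striatal score, and between 16.4 and 18.4 CPM in the others. Htr4 was at 10.3 CPM in F1 no-stress mouse 7 and between 7.92 and 8.26 CPM in the others.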

How the results depend on the processing

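Of 1090 receptor values recomputed under alternatives, 59 changed sign and 9 were called only under the alternative. The causes were not tested. The receptors called in the F2 lineage comparison were 0 with edgeR as described and 1, Htr2c, at an adjusted p under 0.1, with DESeq2 and with the striatal covariate, which was chosen after seeing the data. No paired analysis was made, because the labels name no pairing, litter or sire of the mice. The fewest counts per library stood behind Htr6 (16 to 66) and Htr1f (22 to 77).

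Counts of all genes called moved more. At an adjusted p under 0.1 they were 1 for F1 lineage, 2502 for F2 lineage, 1359 for the interaction, 1057 between generations without stress and 4 between generations with it. With library totals the F1 lineage count was 1 and the generation counts 208 and 0. With no filter F2 lineage gave 737, the interaction 100 and the no-stress generations 61. With the GC content and length offset F2 lineage gave 32, the interaction 0 and the generations 1 and 4. The striatal covariate gave 881 for the interaction and 612 for the no-stress generations. DESeq2 gave 2 for F1 lineage, 1992 for F2 lineage, 1178 for the interaction, and 992 and 6 for the generations, and limma-voom gave 1 for the stress generations. With only the groups compared in the fit, F2 lineage and both generation comparisons gave 0. Without the 2 farthest libraries, 6 marker relations and 7 receptor pairs passed.

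Leaving out 1 library at a time, genes called ran from 0 to 1 for F1 lineage (1 without F1 no-stress mouse 7), from 241 to 2431 for F2 lineage, from 0 to 1501 for the interaction, from 0 to 725 for the no-stress generations and from 0 to 10 for the stress generations. For F2 lineage the count was 241 without mouse 11, 511 without 12, 556 without 13, 2431 without 15, 421 without 16 and 358 without 17. The interaction gave 0 without mouse 2, 3, 4, 7, 8, 10, 11, 12, 13, 16 or 17, 855 without 6, 1501 without 14, 635 without 15 and 775 without 18. The no-stress generations gave 725 without mouse 6, 4 without 7, 209 without 9, 6 without 16, 573 without 18, 195 without 19 and 0 without 8, 10 or 17. The stress generations gave 0 without mouse 1, 2, 5, 11, 13 or 15, 1 without 3 or 4 and 10 without 14. Receptors called ran from 0 to 2 for F2 lineage (Htr2c and Htr6 without mouse 15) and from 0 to 1 for the interaction.

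Signs turned in these log2 values. In F1 lineage Htr2a was 0.024 with library totals, and the striatal covariate gave Htr1a -0.00022, Htr1b 0.065, Htr2a 0.18, Htr2c -0.020, Htr6 0.13, Htr7 -0.10 and Htr1d 0.052. In F2 lineage the offset gave Htr1b -0.068 and Htr2a -0.0089, limma-voom gave Htr1b -0.052 and the covariate Htr3a -0.070. In the interaction the offset gave Htr5a -0.012 and Htr7 -0.0039. Between the no-stress generations Htr3a was -0.00091 with no filter, -0.052 with the offset, -0.12 with the covariate, -0.0020 with DESeq2 and -0.00079 with only these groups, and Htr7 was -0.071 with the covariate. With 1 library left out, signs turned for Htr2a (-0.16 to 0.10) in F1 lineage, for Htr1b (-0.24 to 0.25), Htr1f (-0.30 to 0.16) and Htr3a (-0.075 to 0.41) in F2 lineage, and for Htr1a (-0.0027 to 0.26), Htr3a (-0.50 to 0.0088) and Htr7 (-0.20 to 0.24) in the interaction. Between generations they turned for Htr3a (-0.17 to 0.21) and Htr7 (-0.095 to 0.31) without stress, and for Htr1a (-0.12 to 0.088), Htr1b (-0.13 to 0.37), Htr2a (-0.14 to 0.10), Htr5a (-0.13 to 0.039), Htr6 (-0.37 to 0.068) and Htr7 (-0.11 to 0.29) with stress.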
